A study of Homo sapiens with 20 samples.

Results

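In nuclei of cultured human cells, 3176 of 235195 sites were contacted by hnRNP A1, U2AF2 and SRSF1 alike in cells without hnRNP A1 overexpression, and those sites are described here. Sites came from the 8 control libraries of individual-nucleotide crosslinking and immunoprecipitation (iCLIP), a method that sequences the RNA fragments crosslinked by ultraviolet light to 1 immunoprecipitated protein. Peaks that overlapped by at least 1 nt on the same strand were merged across the 3 proteins. A merged site was kept as shared when it held a peak in both hnRNPA1 control libraries, in at least 2 of the 3 U2AF2 control libraries and in at least 2 of the 3 SRSF1 control libraries. Control reads chose the sites, so control values are given as a description and only the response to overexpression was tested. That response uses the same control libraries: a shared site had to have control peaks, which favours falls, while the sites tested over the whole data include many with peaks only after overexpression. Counts beside that background are therefore a description and not evidence that shared sites respond differently.

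The cell line label reads TREX FLP-In 293T, while the titles of the RNA-seq samples read HEK293, and both names are lines of human embryonic kidney cells. Overexpression libraries came from cells with an inducible T7-tagged hnRNPA1 gene, and control libraries from cells whose overexpression label reads n/a. Both kinds of cell were kept under tetracycline for 24 h, so the controls carry the inducing drug too. Selection for 3 days preceded use, with blasticidin and zeocin, or with hygromycin for the inducible cells, so the selecting drug goes with the condition and cannot be told apart from it. Each of hnRNPA1 (2 libraries per condition), U2AF2 and SRSF1 (3 per condition each) was profiled from nuclear extracts, and polyadenylated RNA from whole cells was sequenced from 2 samples per condition. The labels do not say whether replicates were separate cultures, so p-values measure the spread between libraries, which may be technical. The level of hnRNP A1 in either kind of cell was not analysed here.

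hnRNP A1 is an abundant nuclear protein that binds short purine-containing motifs and often represses splicing. U2AF2 is the large subunit of the U2 auxiliary factor and binds the pyrimidine tract upstream of the 3′ splice site, where it helps the U2 snRNP to engage. SRSF1, a founding member of the SR proteins, recognises enhancers within exons and helps the U1 snRNP and U2AF to find splice sites. Small nucleolar RNAs (snoRNAs), which guide chemical modification of ribosomal and spliceosomal RNA, are mostly excised from introns of other genes, and box C/D snoRNAs keep a C box near the 5′ end and a D box near the 3′ end.

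Of all sites, 0.0702% lay in an annotated snoRNA gene, against 2.93% (93) of the shared sites, and at these RNAs U2AF2 and SRSF1 reads often moved in opposite directions. The following box C/D snoRNAs are therefore shown first, with the first TGATG (the core of the C box) and the last CTGA (the D box) in capitals. The sequences are those of GENCODE release 29 (GRCh38), matched by gene ID. They were chosen after their values were seen: SRSF1 reads fell with overexpression at the first pair and rose at the other 3.
SNORD24, in RPL7A: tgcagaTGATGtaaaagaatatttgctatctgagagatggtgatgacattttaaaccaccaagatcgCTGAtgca
SNORD37, in EEF2: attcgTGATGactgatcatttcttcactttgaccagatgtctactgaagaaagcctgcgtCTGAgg
SNORD2, in EIF4A2: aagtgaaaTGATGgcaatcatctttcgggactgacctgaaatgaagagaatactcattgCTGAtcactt
SNORD34, in RPL13A: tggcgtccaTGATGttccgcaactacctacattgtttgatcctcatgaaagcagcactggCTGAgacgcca
SNORD18B, in RPL4: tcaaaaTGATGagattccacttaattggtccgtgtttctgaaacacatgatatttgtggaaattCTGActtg
On the strand of the RNA, TGATG followed by CTGA was found in 76 of the 80 SNORD genes at shared sites (95.0%), in 250 of all 278 SNORD genes of that release (89.9%) and in 8 of 147 SNORA genes (5.44%), which belong to the other, H/ACA class. The match describes the RNAs and says nothing of which protein bound where. Median snoRNA length was 80 nt and the median shared site at a snoRNA was 79 nt wide, and 55 sites were within 15 nt of the length of their snoRNA.

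Depth went with condition. Deposited peaks held 2480791 to 2940786 reads in the hnRNPA1 control libraries and 540256 to 566544 with overexpression. For U2AF2 the order was the other way, with control libraries of 692837 to 1145380 reads and overexpression libraries of 2259743 to 3491032, and SRSF1 libraries held 121534 to 168204 and 170719 to 321129 reads. Reads per site were therefore divided by a size factor set on the sites with a peak in every library of a protein, and a value of 0 means that no peak was listed there, not that no read was present. In replicate 3 of U2AF2 with overexpression the smallest peak held 3 reads, against 6 in the other 15 libraries, and the gene annotation differed: 487 of the 12114 genes with a U2AF2 peak in overexpression replicates 1 and 2 had none in it, XIST among them.
Calls were made in 2 ways. The planned test took sites with a peak in at least 50% of a protein's libraries, where a peak that is not listed enters as 0. Simulated data held 200 changed sites for each protein. On them the planned test called 29% of the unchanged sites for U2AF2, 26.7% for hnRNPA1 and 4.36% for SRSF1. For SRSF1 these were 222 unchanged sites beside 128 changed ones, so false calls were too many for every protein. It recovered none of the simulated differences between the U2AF2 and SRSF1 responses. The test over sites with a peak in every library of a protein called 0.262% of the unchanged sites for U2AF2, 0.142% for hnRNPA1 and 0.452% for SRSF1. These were 27 unchanged sites beside 142 changed ones for U2AF2, 30 beside 59 for hnRNPA1 and 9 beside 161 for SRSF1. For U2AF2 and hnRNPA1, false calls were thus still a larger part of the calls than the threshold allows. Counts of the second test therefore come first below, and those of the first are given beside them as counts of the 50% filter, which do not by themselves show a change. In brackets after a value, the adjusted p is that of the 50% filter and the every-library adjusted p is that of the second test. A site without an every-library adjusted p lacks a peak in some library, so only its reads are described.

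The shared sites were wide and lay mostly in protein-coding genes. Their median width was 118 nt (quartiles 77 and 219 nt), against 53 nt for all merged sites, and 2639 of them (83.1%, against 93% of all sites) were listed under a protein-coding gene, 162 (5.1%, against 1.3%) under a long intergenic non-coding RNA and 23 (0.724%, against 0.0272%) under a small nuclear RNA (snRNA). They belonged to 2486 gene IDs, 1916 with a single site. XIST, the RNA that coats the inactive X chromosome, held 56 sites and the nuclear speckle RNA MALAT1 held 26. SLIT2, a secreted axon guidance cue, held 13, and 14 were in the RNA helicase gene DDX17. HNRNPU and DDX39B held 11 each, and HNRNPH1 and the snoRNA host gene GAS5 held 10 each.

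In control cells the peaks of the 3 proteins lay close together, which the rule favours because it merged overlapping control peaks into 1 site. For each protein, the midpoint of the strongest peak was averaged over its libraries with a peak. The midpoints of the strongest hnRNPA1 and U2AF2 peaks were within 20 nt of each other at 74.31% of the shared sites, those of SRSF1 and U2AF2 at 73.46% and those of SRSF1 and hnRNPA1 at 74.46%. Median control reads were 42.8 for hnRNPA1, 61.4 for U2AF2 and 11.2 for SRSF1. The 450 sites that met the rule with exactly 2 U2AF2 and 2 SRSF1 libraries had medians of 27.6, 22.8 and 6.78. The 2081 sites that missed it for a single SRSF1 library had medians of 27.3, 35.2 and 3.05. Across the shared sites, log2 control reads of hnRNPA1 and U2AF2 had Pearson's r = 0.745, which describes sites that share genes and RNA abundance.

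U2AF2 reads were nearly lost at some shared sites and kept or gained at others, with no gap between them in the fitted changes. Of 1964 shared sites with a peak in every U2AF2 library, 588 fell and 725 rose with hnRNPA1 overexpression (limma, adjusted p under 0.05), beside 36.5% and 33.0% of all sites tested that way. Sites that lost all peaks are not among them. The 50% filter called 1046 of 3061 lower and 655 higher (22.1% and 36.3% of all sites tested). With that filter the median change was 0.01 at the shared sites and 1.2 over all sites. On the log2 scale 881 shared sites (28.8%) lay below -3, while 742 lay between 1 and 3 and 42 at 3 or above. A lower tail was present over all sites tested too, so it is not particular to the shared sites. The histogram bin starting at -6 held 2.73% of all sites and 2.94% of the shared sites. For the bin starting at 3 these shares were 7.84% and 0.947%. The sites that the 50% filter called lower had a median of 199 control reads and 7.11 with overexpression, and those called higher had 60.8 and 137.

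The balance of calls with the 50% filter moved with the scaling. Scaled by total reads in peaks, the median over all sites moved from 1.2 to 2.08, and 59.4% of the called shared sites were higher, against 38.5% before (883 lower and 1293 higher). Scaled by quantiles, 62.6% were higher, with 828 lower.

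**Figure D1:**
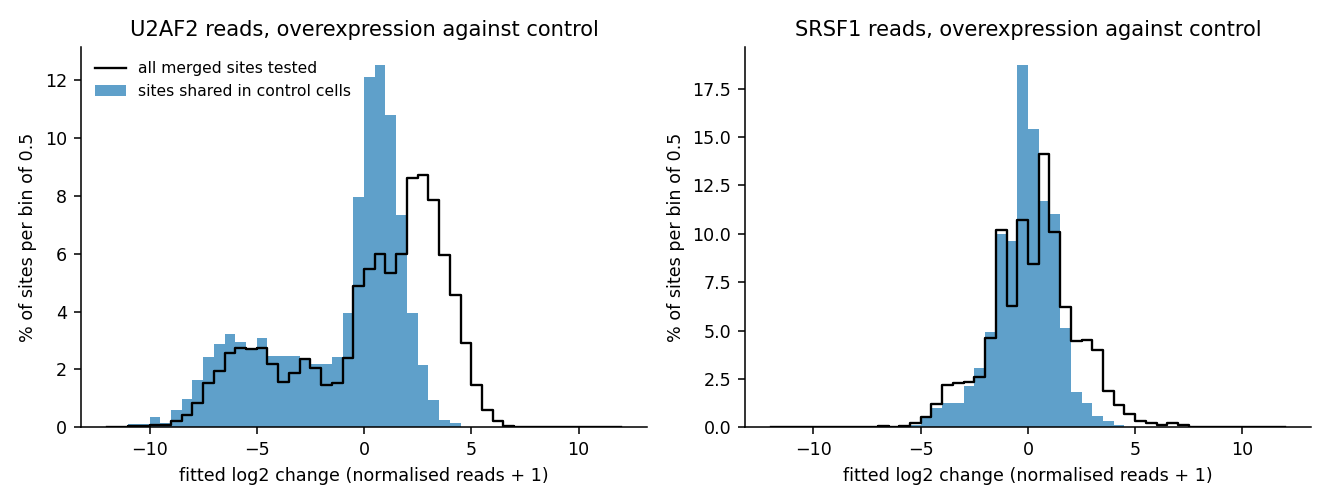
Histograms of the fitted log2 change (x axis, normalised reads + 1) for U2AF2 and SRSF1, with the share of sites per bin of 0.5 on the y axis. Blue bars are the shared sites and the black line is every merged site tested, both with the 50% filter, where a peak that is not listed enters as 0. U2AF2 shows a broad lower tail in both sets, running without a gap into the main peak, with 881 shared sites below -3. Of 2967 SRSF1 changes, 1642 lie between -1 and 1.

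U2AF2 fell at transcripts of many splicing factors. Coordinates are those of hg19, the build of the files. A site in HNRNPA2B1, the gene of the closest relative of hnRNP A1 (chr7:26231317-26231863), had 2807, 3489 and 2791 normalised reads in control cells and 18.3, 76.3 and 17.2 with overexpression for U2AF2. Every overexpression library was far below every control library (log2 change -6.65, SE 0.62, adjusted p = 0.00029, every-library adjusted p = 4.6e-06). hnRNPA1 had 678 and 645 normalised reads in control cells and 816 and 779 with overexpression at the same site, a difference that missed the threshold with a peak in every library (log2 change 0.27, SE 0.04, adjusted p = 0.019, every-library adjusted p = 0.36).
A site in HNRNPH1, whose protein binds G-rich splicing elements, had 3957, 5124 and 4013 normalised reads in control cells and 42.1, 82.8 and 49.2 with overexpression for U2AF2 (log2 change -6.26, SE 0.28, adjusted p = 1.8e-05, every-library adjusted p = 3.1e-07). The groups were again apart, while hnRNPA1 groups overlapped there, at 1071 and 1085 (control) and 1077 and 1031 (overexpression).
ARGLU1, a regulator of splicing and transcription, had 5055, 6409.8 and 4765 normalised reads in control cells and 155, 221 and 149 with overexpression for U2AF2 (log2 change -4.95, SE 0.20, adjusted p = 1.3e-05, every-library adjusted p = 3.8e-07). LUC7L3, a U1 snRNP-associated SR-like protein, had 2917, 3854 and 2897 (control) and 42.8, 115 and 42.5 (overexpression) (log2 change -5.72, SE 0.44, adjusted p = 0.00013, every-library adjusted p = 1.9e-06). Both kept SRSF1 reads, with 223, 247 and 249 (control) against 287, 372 and 329 (overexpression) at ARGLU1 and 66.4, 88.8 and 98.2 (control) against 127, 178 and 201 (overexpression) at LUC7L3, where every overexpression library was above every control library and neither difference passed the threshold.

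Several sites lost every U2AF2 peak. RBM39, a splicing factor related to U2AF2, had 591, 616 and 499.9 U2AF2 reads in control cells (chr20:34327911-34328286) and no peak in any overexpression library. SAT1, which acetylates spermidine and spermine, had 834, 859 and 752 and none. Such sites have no fold, because the read minimum for a peak sets what a value of 0 means, and no every-library adjusted p.
At SAT1 the other proteins kept their peaks. hnRNPA1 had 155 and 168 normalised reads in control cells and 249 and 209 with overexpression, which did not pass the threshold (adjusted p = 0.06), and SRSF1 had 153, 136 and 146 normalised reads in control cells and 55.6, 69.8 and 53.3 with overexpression, a fall (log2 change -1.28, SE 0.18, adjusted p = 0.0045, every-library adjusted p = 0.014). The same loss was seen at a MALAT1 site (chr11:65271082-65271132) with 1017, 959.7 and 899.7 U2AF2 control reads and at a site in ZNF207, a spindle checkpoint protein, with 542, 705 and 459.9. ERC1, a scaffold of vesicle docking, had 3699, 3394 and 3047 and then 0, 0 and 7.03 over a site of 3527 nt.
DDX39B encodes the helicase that U2AF2 recruits and that also serves mRNA export. Its site at chr6:31508876-31508949, shared with the readthrough gene ATP6V1G2-DDX39B, had 1141, 1078 and 839.8 (control) and 0, 0 and 4.47 (overexpression) U2AF2 reads, while SRSF1 had 99.7, 96.7 and 154 normalised reads in control cells and 320.3, 279 and 594 with overexpression. SRSF1 rose there (log2 change 1.71, SE 0.35, adjusted p = 0.023, every-library adjusted p = 0.012) with groups that did not overlap.

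A site in ZNF711, a zinc finger gene of the X chromosome (chrX:84500905-84504318), had 11691, 13151 and 13364 normalised reads in control cells and 343, 450.2 and 286 with overexpression for U2AF2 (log2 change -5.17, SE 0.18, adjusted p = 1.2e-05, every-library adjusted p = 3.3e-07). SRSF1 had 353, 446 and 389.5 (control) and 312, 537 and 404 (overexpression) at the same site, with overlapping groups (adjusted p = 0.91). hnRNPA1 fell less, from 1912 and 1779 to 1003 and 863 (log2 change -0.99, SE 0.10, adjusted p = 0.0073, every-library adjusted p = 0.018).

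U2AF2 rose at other shared sites. RNGTT, which encodes the mRNA capping enzyme (chr6:89387713-89387772), had 78.2, 88.9 and 90 normalised reads in control cells and 411, 426 and 382 with overexpression for U2AF2 (log2 change 2.23, SE 0.08, adjusted p = 1.2e-05, every-library adjusted p = 2.6e-06). The groups were well apart. hnRNPA1 fell at that site, from 92.1 and 90.3 to 16.4 and 17.3 (log2 change -2.37, SE 0.16, adjusted p = 0.0029, every-library adjusted p = 0.0062), and SRSF1 had 30.1, 19 and 21.7 (control) and 32.6, 20.7 and 20.6 (overexpression) with overlapping groups.
YME1L1, a protease of the inner mitochondrial membrane, had 52.1, 74.1 and 84 normalised reads in control cells and 349, 330.2 and 325 with overexpression for U2AF2 (log2 change 2.27, SE 0.19, adjusted p = 0.00019, every-library adjusted p = 1.3e-05). POGLUT3, an O-glucosyltransferase, had 52.1, 104 and 82 (control) and 431, 445 and 391 (overexpression) (log2 change 2.45, SE 0.26, adjusted p = 0.00056, every-library adjusted p = 2.8e-05). All overexpression values exceeded all control values at these sites.
UBN2, a subunit of the HIRA histone chaperone complex, went from 26.1, 41.5 and 44 to 186, 184 and 165 and OLA1, an ATPase of the Obg family, from 31.9, 38.5 and 40 to 165, 184 and 167. FHL2, a LIM domain cofactor, went from 26.1, 29.6 and 30 to 143, 137 and 132, TCP11L1 from 26.1, 23.7 and 30 to 169.8, 141 and 145 and TMEM192, a lysosomal membrane protein, from 20.3, 53.3 and 52 to 248, 222 and 203. The log2 changes of these 5 sites lay between 2.20 and 2.51, each with groups apart. TOR1AIP1, a nuclear membrane protein, went from 0, 17.8 and 20 to 179, 148 and 162, so 1 control library had no peak.
The sites that the 50% filter called higher for U2AF2 were narrower than those it called lower, with a median width of 97 nt against 148 nt. At the former, median hnRNPA1 reads were 48.8 in control cells and 5.51 with overexpression, and at the latter they were 61.1 and 22.2.

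SRSF1 changed at fewer sites, and 41 of its 90 rises were at snoRNAs. Among the 1074 sites that had a peak throughout all SRSF1 libraries, 90 rose and 51 fell, beside 7.97% and 5.39% of the 1279 sites of that kind in all, most of which are shared sites. The 50% filter called 76 of 2967 higher and 109 lower (9.95% and 5.84% of all sites tested). With that filter, leaving out any 1 of the 3 SRSF1 overexpression libraries left 0 to 2 rises and 1 fall, and leaving out a control library left 20 to 30 falls. Sites with SRSF1 peaks in control libraries alone fail the filter without 1 of them, so their falls could not be called. A quantile scaling left 32 rises.

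Of the 83 snoRNA sites with peaks in all SRSF1 libraries, 41 rose and 3 fell, with a median change of 1.23, and all 54 with peaks in all U2AF2 libraries fell for U2AF2 (median -4.67). By the 50% filter 35 of 93 were higher and 4 lower for SRSF1 (median 1.43), and 88 of 91 lower for U2AF2 (median -5.79). With that filter, under quantile scaling 16 rose and 5 fell, and without SRSF1 overexpression replicate 1, 2 or 3 there were 1, 0 and 0 rises, with medians of 1.38 to 1.49. SRSF1 reads were higher in every overexpression library than in every control library at 52 of the SNORD sites.
SNORD2, in the translation initiation helicase gene EIF4A2 (chr3:186502585-186502653), had 119, 160.1 and 208 normalised reads in control cells and 662, 679 and 671 with overexpression for SRSF1 (log2 change 2.07, SE 0.22, adjusted p = 0.0039, every-library adjusted p = 0.0024). U2AF2 had 553, 613 and 434 (control) and 7.32, 16.3 and 6.71 (overexpression) over the same RNA (log2 change -5.68, SE 0.37, adjusted p = 6.6e-05, every-library adjusted p = 9.3e-07). Both pairs of groups were apart, in opposite directions.
SNORD34, in the ribosomal protein gene RPL13A, rose for SRSF1 from 170.2, 159 and 238 to 535, 536 and 579 (log2 change 1.56, SE 0.19, adjusted p = 0.0039, every-library adjusted p = 0.0036), and SNORD32A, in another intron of RPL13A, from 71.6, 92 and 99.4 to 448, 533 and 513 (log2 change 2.50, SE 0.18, adjusted p = 0.0023, every-library adjusted p = 0.0012). At both, every overexpression library was above every control library.
SNORD82, in the nucleolin gene NCL, rose for SRSF1 from 8.3, 12.7 and 58.3 to 214, 245 and 289 (log2 change 3.66, SE 0.71, adjusted p = 0.017, every-library adjusted p = 0.0055). SNORD18B, in RPL4, rose from 166, 211 and 157 to 457, 469.7 and 468 (log2 change 1.39, SE 0.16, adjusted p = 0.0039, every-library adjusted p = 0.0048), and SNORD63, in the mitochondrial chaperone gene HSPA9, from 158, 182 and 233 to 560.1, 616 and 530.0 (log2 change 1.58, SE 0.18, adjusted p = 0.0039, every-library adjusted p = 0.0033). SNORD110 and SNORD56, both in NOP56, a core protein of box C/D particles, rose by 2.05 and 1.74 on the log2 scale.
The H/ACA class took part too. SNORA62, in RPSA, rose from 21.8, 28.5 and 42.3 to 138, 169 and 171 (log2 change 2.37, SE 0.29, adjusted p = 0.0039, every-library adjusted p = 0.0028) and SNORA75, in NCL, from 30.1, 38.1 and 51.4 to 138, 169.9 and 188 (log2 change 2.05, SE 0.26, adjusted p = 0.0039, every-library adjusted p = 0.0036). Of 8 SNORA sites, the 50% filter called 4 higher for SRSF1 and none lower, and all 7 tested for U2AF2 lower.

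The 50% filter called SRSF1 lower at 4 snoRNA sites. SNORD24 (chr9:136216257-136216325) had 828, 596 and 1125 normalised reads in control cells and 181, 223 and 205 with overexpression for SRSF1 (log2 change -2.02, SE 0.26, adjusted p = 0.0039, every-library adjusted p = 0.0024). SNORD37 (chr19:3982503-3982577) had 877, 707 and 722 normalised reads in control cells and 289.6, 240.4 and 313 with overexpression for SRSF1 (log2 change -1.45, SE 0.16, adjusted p = 0.0039, every-library adjusted p = 0.0033). Groups did not overlap at either.
SNORD36B fell from 429.8, 331 and 375 to 223, 189 and 191 (log2 change -0.90, SE 0.16, adjusted p = 0.01, every-library adjusted p = 0.028) and SNORD69 had 163, 155 and 202 (control) and 104, 98.1 and 112 (overexpression), which missed the threshold with a peak in every library (log2 change -0.72, SE 0.17, adjusted p = 0.041, every-library adjusted p = 0.094). RPL7A therefore held both a pair of called falls, at SNORD24 and SNORD36B, and SNORD36C, where SRSF1 had 67.5, 453 and 75.4 (control) and 412, 408 and 403 (overexpression) with overlapping groups. In the multi-snoRNA host GAS5, the 50% filter called SRSF1 higher at 7 of 10 sites and lower at 1, and U2AF2 lower at all 10. Summed over its sites, SRSF1 had 582, 466 and 921 (control) and 1719.5, 2166 and 2232 (overexpression) normalised reads in GAS5 and U2AF2 had 4287, 4079 and 3567 (control) and 88.9, 106 and 76.3 (overexpression).

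**Figure D2:**
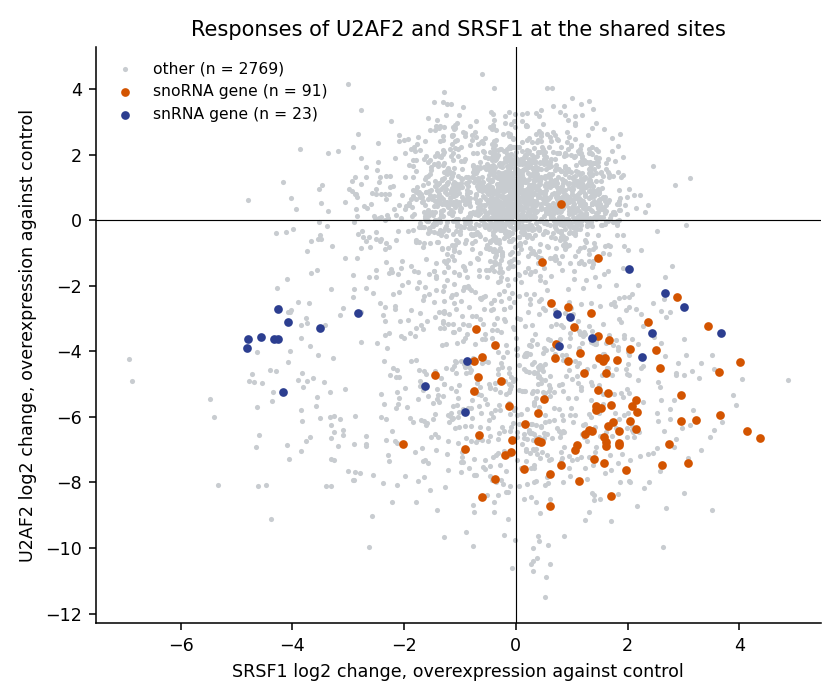
Each point is a shared site tested with the 50% filter, with the SRSF1 log2 change on the x axis and the U2AF2 log2 change on the y axis, and snoRNA and snRNA genes are coloured. Most snoRNA sites lie in the lower right quadrant, with U2AF2 medians of -5.79 and SRSF1 medians of 1.43, while a group of snRNA sites lies at the lower left.

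SRSF1 calls at the snRNAs went in both directions with the 50% filter alone. U2AF2 fell at all 20 snRNA sites with a peak in every U2AF2 library, whereas SRSF1 rose at 4 of 9 and fell at none. With the 50% filter, U2AF2 was called lower at 22 of 23 and SRSF1 lower at 8 and higher at 3. The 8 sites were at U1 genes, variants and pseudogenes, of which all but RNU1-83P carry the sequence ACTTACCTG that pairs with the 5′ splice site (in capitals). The sequence of RNU1-1 is shown for that reason.
RNU1-1: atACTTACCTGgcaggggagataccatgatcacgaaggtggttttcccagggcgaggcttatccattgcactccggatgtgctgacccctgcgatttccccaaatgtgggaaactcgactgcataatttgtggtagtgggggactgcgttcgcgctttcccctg
RNU1-1 (chr1:16840690-16840774) had 15.6, 25.4 and 14.9 SRSF1 reads in control cells and no peak with overexpression. RNU1-3 had 21.8, 38.1 and 24 and none, and RNU1-4 had 12.5, 27 and 17.1 and none, so none of these has an every-library adjusted p. RNU1-2 had 14.5, 46 and 25.1 (control) and 0, 7.6 and 5.33 (overexpression) and missed the threshold. The missing peaks were not particular to SRSF1, since hnRNPA1 had no overexpression peak at any of the 8 sites either. At RNU1-1 hnRNPA1 had 19.6 and 24.5 control reads. The 50% filter called hnRNPA1 lower at 14 of 23 snRNA sites (48.4% of all sites tested) and higher at 0.
These U1 copies cannot be counted as separate measurements, because 8 genes share the sequence of RNU1-1 exactly and the way reads were placed among copies is not given in the sources used here. The 8 sites also held few reads. With any 1 control library left out, 15 snRNA sites were tested and none fell. The 8 sites were not among those 15, because their peaks in control libraries alone then failed the 50% filter. Those fits therefore cannot say whether the falls hold. Among the rises, RNU2-2P, listed also under WDR74, went from 118, 138 and 115 to 292, 384 and 296 (log2 change 1.37, SE 0.17, adjusted p = 0.0039, every-library adjusted p = 0.0069) and RNU7-1, the U7 RNA that serves histone mRNA processing, from 14.5, 14.3 and 8.0 to 70, 82.2 and 92.9 (log2 change 2.67, SE 0.32, adjusted p = 0.0039, every-library adjusted p = 0.0024). Groups did not overlap at either.

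SRSF1 peaks were also missing with overexpression at sites outside small RNAs. At chr11:65204732-65204931 in NEAT1, the scaffold of paraspeckles, SRSF1 had 72.7, 20.6 and 53.7 in control cells and no peak with overexpression, and U2AF2 fell from 672, 634 and 764 to 12.8, 27 and 9.26 (log2 change -5.44, SE 0.40, adjusted p = 0.00011, every-library adjusted p = 1.5e-06). hnRNPA1 went the other way there, from 131 and 130.3 to 374 and 582 (log2 change 1.83, SE 0.27, adjusted p = 0.017, every-library adjusted p = 0.0082). This holds for that site and not for the gene: of 7 NEAT1 sites, the 50% filter called hnRNPA1 higher at 2 and lower at 2, SRSF1 higher at 1 and lower at 1, and U2AF2 higher at 1 and lower at 5.
A site in U2AF1, the gene of the small U2AF subunit (chr21:44519791-44519850), lost the peaks of all 3 proteins: hnRNPA1 had 25.9 and 40.6 control reads, U2AF2 had 63.7, 68.1 and 56 and SRSF1 had 30.1, 65 and 36.6. HMGN1, a nucleosome-binding protein, had 42.6, 36.5 and 38.8 SRSF1 control reads and no peak with overexpression, and a second DDX39B site (chr6:31501009-31501146) had 114, 168 and 91.4 and none.

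**Figure D3:**
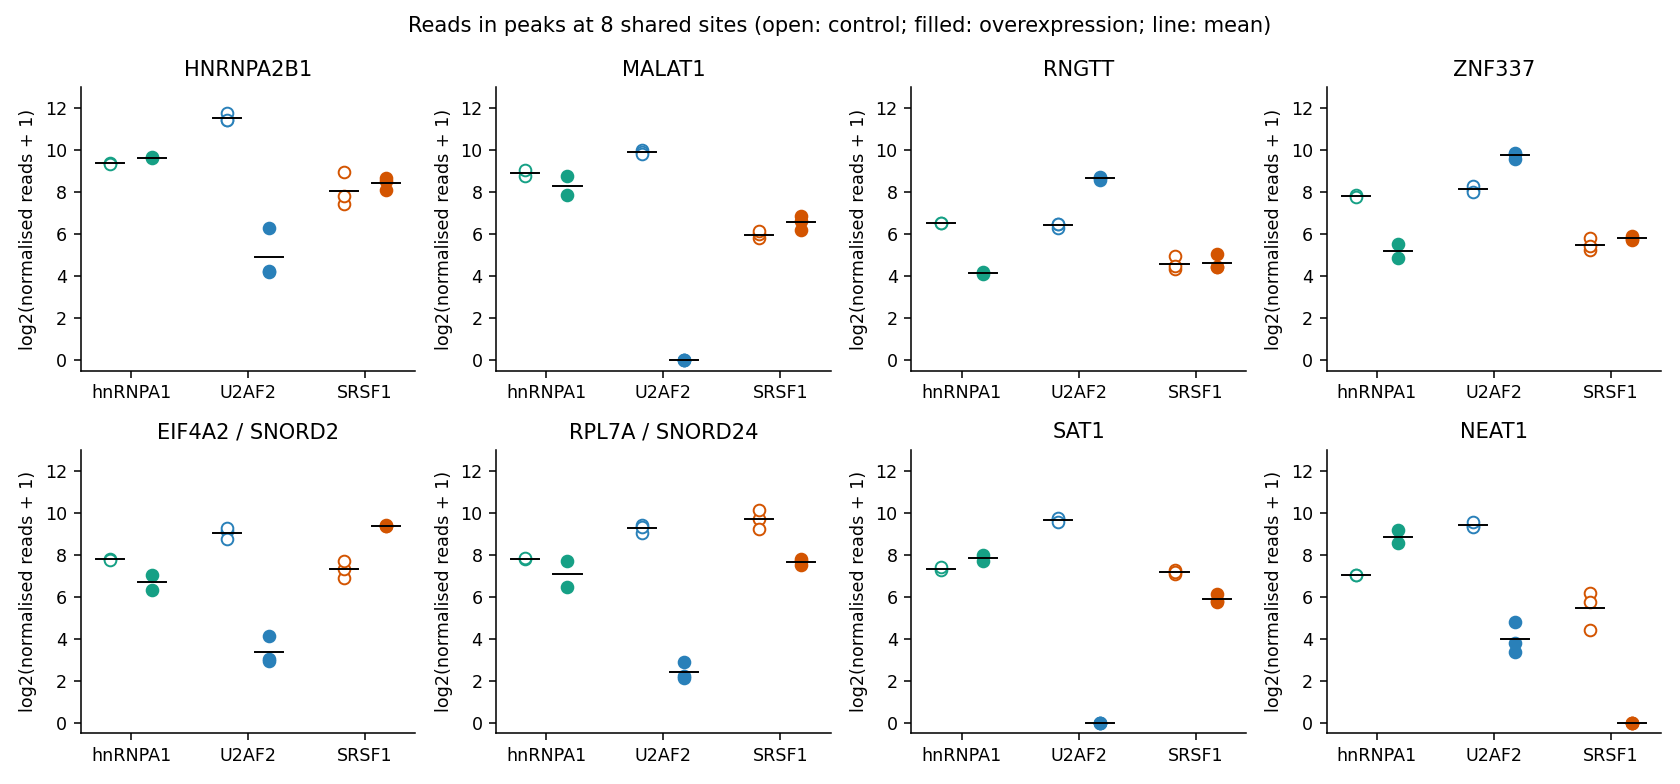
Reads in peaks at 8 shared sites as log2(normalised reads + 1) on the y axis, for each protein on the x axis. Open circles are control libraries, filled circles overexpression libraries and the lines are means. U2AF2 falls at each site drawn except RNGTT and ZNF337, and SRSF1 is higher at SNORD2 and lower at SNORD24, SAT1 and NEAT1.

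hnRNPA1 itself fell at 472 of the 1145 shared sites with a peak in every library and rose at 23 (background 8.92% and 5.58%), with a median change of -0.94 at shared sites and 0.02 over all sites. The 50% filter called 1563 of 3176 lower and 30 higher, shares near the background of 48.4% and 1.02%. The overexpression libraries of hnRNPA1 were the shallowest of that protein, and 1112 shared sites had no hnRNPA1 peak in either of them. Scaled by total reads with the 50% filter, 154 were called higher. Without control replicate 1 or 2, 355 and 368 were called lower and 19 and 11 higher, but only 2064 sites were then tested. Without overexpression replicate 2, 2534 of 3176 were called lower, and without overexpression replicate 1, 54 were called higher.
In SLIT2 the 50% filter called hnRNPA1 higher at 5 of 13 sites and lower at 2. Its site at chr4:20273145-20273373 had 15.5 and 25.2 normalised reads in control cells and 100.1 and 123 with overexpression for hnRNPA1 (log2 change 2.43, SE 0.33, adjusted p = 0.015, every-library adjusted p = 0.0071), while U2AF2 fell from 403, 412 and 336 to 5.86, 7.29 and 1.28 (log2 change -6.24, SE 0.54, adjusted p = 0.00022, every-library adjusted p = 3.4e-06). LINC02226, a long non-coding RNA, had 429.5 and 439 (control) and 903 and 1047 (overexpression) for hnRNPA1 (log2 change 1.16, SE 0.09, adjusted p = 0.004, every-library adjusted p = 0.012) and 2187, 1946 and 1809 (control) and 17.9, 61.7 and 27.1 (overexpression) for U2AF2 (log2 change -5.94, SE 0.46, adjusted p = 0.00014, every-library adjusted p = 1.9e-06).
CDCA7, a cell division cycle associated protein, rose for hnRNPA1 from 14.4 and 12.9 to 67.3 and 42.5 (log2 change 1.90, SE 0.34, adjusted p = 0.028, every-library adjusted p = 0.016) and AAMDC from 7.49 and 5.81 to 29.5 and 40.9 (log2 change 2.24, SE 0.33, adjusted p = 0.018, every-library adjusted p = 0.0097). MARS1, the methionyl-tRNA synthetase, rose from 14.4 and 18.1 to 57.4 and 69.3 (log2 change 1.90, SE 0.25, adjusted p = 0.013, every-library adjusted p = 0.011). Groups were apart in each.
hnRNPA1 peaks were missing with overexpression at several sites. HNRNPU (chr1:245017356-245017513) had 412 and 494 reads in control cells and no peak with overexpression, and an XIST site (chrX:73071898-73071989) had 1853 and 1482 and none. A MALAT1 site (chr11:65272779-65272849) had 226 and 297 and none, while U2AF2 had 165, 261 and 206 (control) and 155, 181 and 147 (overexpression) and SRSF1 156, 239 and 143 (control) and 167, 197 and 194 (overexpression), with no call for either.

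Whether U2AF2 responded otherwise than SRSF1 was tested as a difference. With a peak in every library of both proteins, the U2AF2 response was below that of SRSF1 at 240 of 768 shared sites and above it at 239 (33.0% and 30.2% of the 792 sites of that kind in all, nearly all of them shared sites). At snoRNAs it was below at 49 of 49. The 50% filter called 657 of 2883 below and 198 above (24.1% and 7.08% of all sites tested), and total-read scaling made these 544 and 527. How far sites below outnumbered those above therefore depended on the setting.

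Gene lists chosen with earlier results of these data known were used to sort the sites. For U2AF2, with a peak in every library (36.5% of all sites lower and 33.0% higher), 27 of 28 sites in hnRNP genes fell and 1 rose, 25 of 26 in SR and SR-related genes fell and 1 rose, and both tested sites in genes of 3′ splice site and U2 factors fell. Sites in snoRNA host genes (21 of 23), translation factors (8 of 8), RNA helicases (17 of 20), chaperones (11 of 11), cell cycle genes (6 of 8), nuclear long non-coding RNAs (19 of 21) and ribosomal protein genes (24 of 25) mostly fell as well. Zinc finger genes were mixed, with 10 of 59 lower and 22 higher. With the 50% filter (22.1% of all sites lower and 36.3% higher), 52 of 55 hnRNP, 49 of 54 SR and 13 of 15 3′ splice site sites were called lower, and 15 of 88 zinc finger sites lower and 20 higher, or 41 higher with total-read scaling.
For SRSF1, with a peak in every library (7.97% of all sites higher and 5.39% lower), rises numbered 17 and falls 2 among 40 sites in ribosomal protein genes, and 12 and 0 among 28 in snoRNA host genes. With the 50% filter (9.95% of all sites higher and 5.84% lower), these were 12 higher and 4 lower of 52, and 12 and 1 of 40, and under quantile scaling 6 and 5 with a median of -0.05, and 4 and 2. Many of these are snoRNA sites inside such genes, so the lists overlap. With a peak in every library, 1 of 16 SR gene sites fell and none rose, 2 of 32 hnRNP gene sites rose and none fell, and 8 of 73 sites in nuclear long non-coding RNAs rose and 2 fell. Under quantile scaling with the 50% filter the last were 3 higher and 6 lower. Histone genes held 2 shared sites, of which 0 had a peak in every U2AF2 library.
Examples from these lists that have not been named are as follows. HSP90AA1, a cytosolic chaperone, lost U2AF2 from 509.8, 545 and 528 to 0, 0 and 0.96, and its SRSF1 groups overlapped, at 13.5, 309 and 10.3 (control) and 128, 189 and 188 (overexpression). EIF4G2 with SNORD97 had 2279.6, 2704 and 1915 (control) and 19, 49.7 and 13.7 (overexpression) U2AF2 reads (log2 change -6.53, SE 0.50, adjusted p = 0.00013, every-library adjusted p = 1.6e-06) and rose for SRSF1 from 76.8, 130.0 and 137 to 244, 246 and 301 (log2 change 1.23, SE 0.27, adjusted p = 0.028, every-library adjusted p = 0.026). RPS4X, a ribosomal protein gene without a snoRNA at this site, had 565, 619 and 524 (control) and 5.86, 8.15 and 12.8 (overexpression) for U2AF2 (log2 change -5.90, SE 0.28, adjusted p = 2.2e-05, every-library adjusted p = 3.8e-07) and overlapping SRSF1 groups, 75.8, 113 and 94.8 (control) and 88.2, 93.9 and 79.2 (overexpression). ZNF337 rose for U2AF2, from 278, 311 and 259.9 to 921, 917 and 756 (log2 change 1.61, SE 0.11, adjusted p = 7.9e-05, every-library adjusted p = 3.4e-05), and fell for hnRNPA1, from 235 and 217 to 27.9 and 45.6 (log2 change -2.63, SE 0.31, adjusted p = 0.0097, every-library adjusted p = 0.006).

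**Figure D4:**
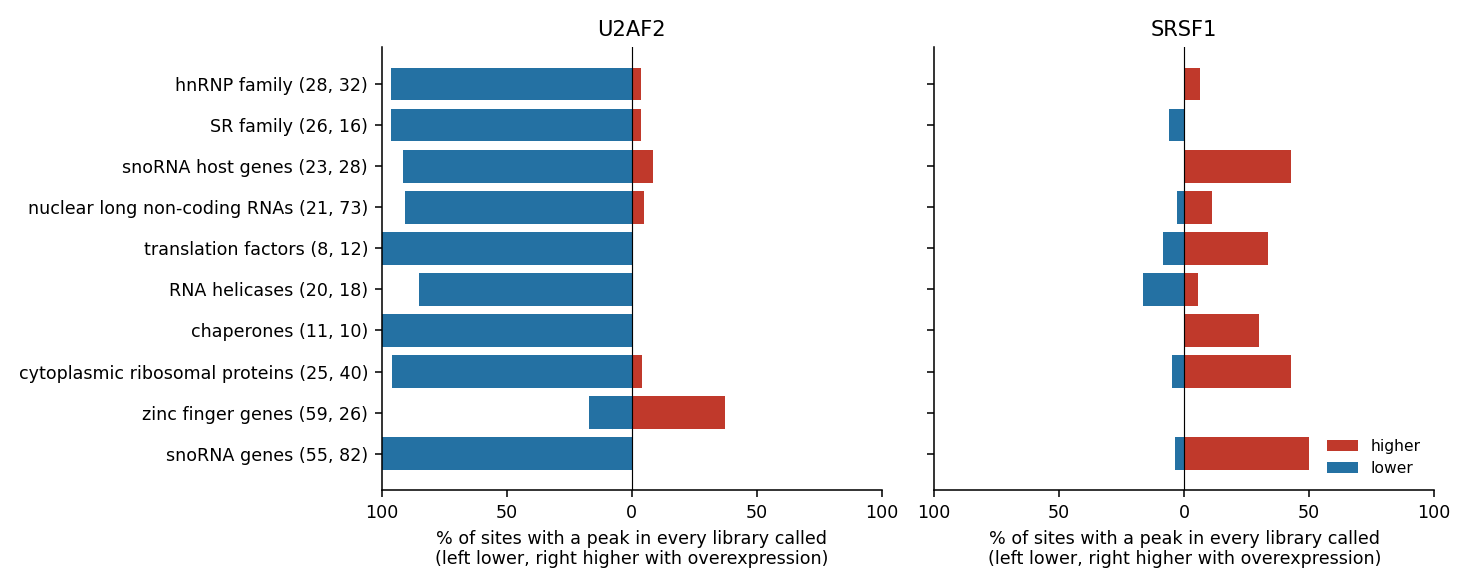
Bars give the percentage of shared sites with a peak in every library that were lower (left) or higher (right) with overexpression, for U2AF2 and SRSF1, in lists (y axis) with at least 8 such sites for each protein, whose numbers stand in brackets. For U2AF2 the lower bar is the longer one in every list drawn except zinc finger genes (10 lower, 22 higher), and the longest SRSF1 bar to the right is that of snoRNA genes (41 of 82, with sites taken by gene symbol).

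The genes of the profiled proteins themselves held shared sites. HNRNPA1 held 2, and that at chr12:54678448-54678769 had 403 and 374 normalised reads in control cells and 176 and 209 with overexpression for hnRNPA1 (log2 change -1.01, SE 0.12, adjusted p = 0.0096, every-library adjusted p = 0.022). U2AF2 had 623, 681 and 639.8 (control) and 0, 22.3 and 22.4 (overexpression) there (log2 change -6.31, SE 1.35, adjusted p = 0.01, no every-library adjusted p) and SRSF1 65.4, 171 and 70.8 (control) and 60.4, 111 and 70.1 (overexpression) with overlapping groups. Reads from the transgene and from the resident gene were not separated here.
SRSF1 held 5. Its site at chr17:56080862-56081034 had 333, 397 and 319.9 (control) and 11, 18.4 and 38 (overexpression) for U2AF2 (log2 change -4.07, SE 0.46, adjusted p = 0.00066, every-library adjusted p = 1.8e-05) and 23.9, 49.2 and 37.7 (control) and 79.6, 44.9 and 54.1 (overexpression) for SRSF1 (adjusted p = 0.34). U2AF2 held 1, where U2AF2 had 72.4, 71.1 and 78 control reads and no peak with overexpression and hnRNPA1 had 42 and 48.4 (control) and 46 and 56.7 (overexpression) with overlapping groups.

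XIST is given separately because U2AF2 overexpression replicate 3 lists no XIST peak. Summed over its 56 sites, control libraries held 139842, 153880.0 and 96239.8 normalised U2AF2 reads and overexpression libraries 7147, 9551 and 0, the last being replicate 3. Replicates 1 and 2, which do list XIST, were also far below the controls. SRSF1 had 18059, 24540.3 and 19630.1 (control) and 20491, 23039 and 22261 (overexpression) and hnRNPA1 46137 and 38087 (control) and 28119 and 27494 (overexpression).
XIST sites took 6.97, 6.72 and 4.2% of all U2AF2 peak reads in the control libraries and 0.743, 0.986 and 0% in the overexpression libraries. Their share of SRSF1 reads was 10.3 to 12.7% and 10.4 to 12.5%. Over MALAT1, which replicate 3 does list, U2AF2 had 24705, 29635 and 23075 (control) and 1333, 1975 and 1189 (overexpression), and SRSF1 had 3276, 2795 and 3153 (control) and 4339, 4850.4 and 4529 (overexpression).

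All shared sites together took 30.2, 28.7 and 24.5% of U2AF2 reads in control cells and 23.3, 23.7 and 18.7% with overexpression. Without XIST these were 23.2, 22.0 and 20.3% and 22.5, 22.7 and 18.7%, so the groups overlapped. For SRSF1 they were 49.1, 46.9 and 53.8% and 56.4, 47.1 and 50.2%, also overlapping, and for hnRNPA1 15.4 and 15.6% and 12.5 and 13.8%.

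A larger share of the shared sites than of sites of 1 protein alone had a peak with overexpression, a difference that was not tested. A U2AF2 peak was present at 81.8, 83.8 and 85.1% of the shared sites in the 3 overexpression libraries, against 10.7, 14.6 and 17.1% of the 8700 sites found in control cells with U2AF2 alone. Sites of hnRNPA1 and U2AF2 without SRSF1 were in between, at 53.8, 56.7 and 59.2%, and those of U2AF2 and SRSF1 without hnRNPA1 at 30.7, 41.1 and 45.1%. For SRSF1 the shares were 70.4, 78.4 and 77.0% at shared sites and 13.6, 22.0 and 18.9% at the 997 SRSF1 sites alone.
For U2AF2 and SRSF1 the gap was also present at matched control levels. At 20 to 50 normalised control reads, U2AF2 peaks were kept at 87.4, 87.8 and 89.1% of 1050 shared sites and at 10.6, 14.1 and 16.2% of 3154 U2AF2 sites alone. For SRSF1 the same bin had 81.0, 88.4 and 85.8% of 501 shared sites and 39.0, 39.0 and 42.4% of 59 SRSF1 sites alone. Width also differs between the classes, at a median of 118 nt for shared sites, 93 nt for U2AF2 alone and 58 nt for SRSF1 alone, and a wider site can meet a peak more easily. Its part in these shares was not tested.
hnRNPA1 peaks were kept at 44.5 and 56.5% of shared sites and at 25.9 and 26.6% of the 33907 hnRNPA1 sites alone. Only at 0 to 20 control reads did that order hold, with 21.8 and 27.0% against 18.5 and 19.1%. In every bin from 20 control reads up the order was the other way. At 20 to 50 control reads the shares were 32.0 and 46.5% of 1399 shared sites and 52.0 and 52.8% of 6466 hnRNPA1 sites alone. At 50 to 100 they were 54.4 and 70.6% against 76.8 and 77.3%, and at 100 to 200 they were 79.7 and 85.3% against 88.3 and 86.7%. At 200 or more they were 89.0 and 90.5% against 95.2 and 95.2%.
U2AF2 falls were also common in the other classes. With a peak in every U2AF2 library, 232 of 250 sites with U2AF2 alone fell and 5 rose (median -3.18), and 51 of 54 with SRSF1 and no hnRNPA1 fell and none rose (median -3.45). At sites with hnRNPA1 and no SRSF1, 378 of 1209 fell and 430 rose (median 0.27). For hnRNPA1, with a peak in every hnRNPA1 library, 74 of 5276 sites with hnRNPA1 alone fell and 367 rose (median 0.23). At sites with U2AF2 and no SRSF1, hnRNPA1 fell at 122 of 940 and rose at 43 (median -0.30). At sites with SRSF1 and no U2AF2, it fell at 7 of 153 and rose at 7 (median -0.02). These classes were chosen by control peaks, as the shared sites were, and were not tested against each other.

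**Figure D5:**
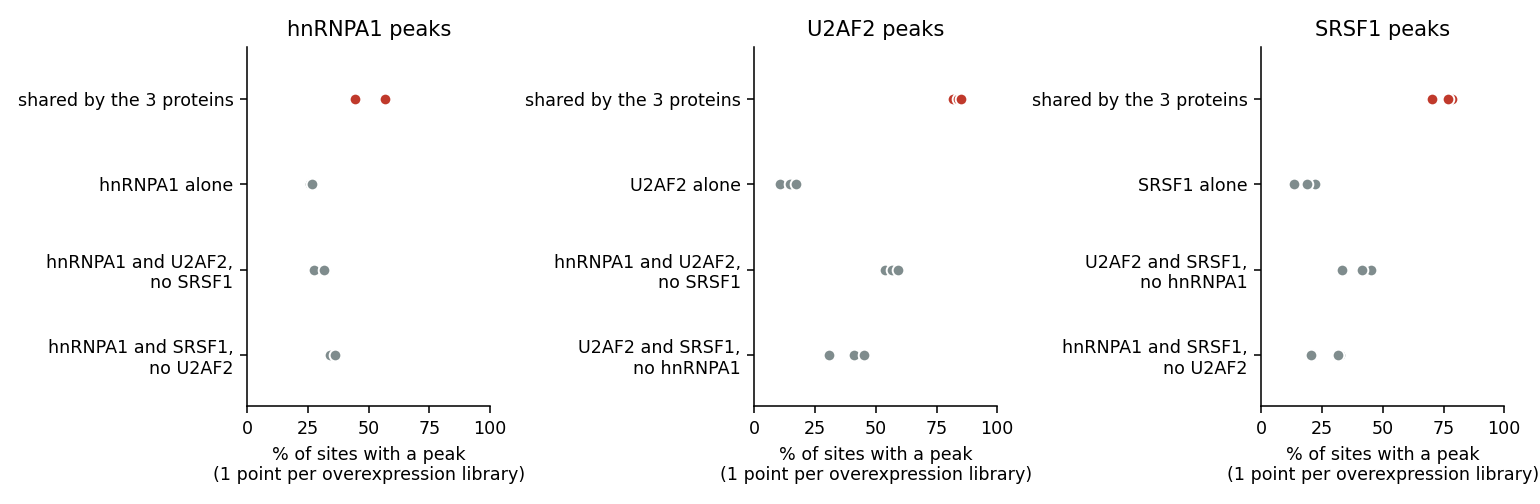
Percentage of sites (x axis) with a peak of the named protein in each overexpression library, 1 point per library, for classes of sites defined by control peaks (y axis). Shared sites (red) lie at 81.8 to 85.1% for U2AF2 and 70.4 to 78.4% for SRSF1, right of every other class drawn.

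Applied to the overexpression libraries, the same rule found 1068 sites. Of the 3176 shared sites, 791 (24.9%) overlapped 759 of these (71.1% of them). The 791 had higher control reads than the other 2385, with medians of 71.7 and 37.0 for hnRNPA1, 105.8 and 53.1 for U2AF2 and 17.5 and 9.97 for SRSF1, and their median width was the same, 118 nt. They included 52 of the 93 snoRNA sites and 25 of the 56 XIST sites.
Where peaks of 2 proteins remained with overexpression, a smaller share lay close together than at all shared sites in control cells. The control spacing of the remaining sites alone was not computed, so the sets of sites differ. The strongest hnRNPA1 and U2AF2 peaks were within 20 nt at 52.27% of 1869 sites with overexpression, against 74.31% in control cells, where each site has both by the rule. The median offset moved from -1.25 to 4 nt, negative meaning hnRNPA1 upstream. For SRSF1 and U2AF2 the share within 20 nt was 62.89% of 2662 sites and for SRSF1 and hnRNPA1 65.02% of 1901. Control peaks were required to overlap into 1 site, and the part of that rule in the spacing was not tested.

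Skipped exons listed in the authors' deposited table could be set beside 28 shared sites, which lay in the spans of 25 of its 251 events. The table gives no strand, so sites were matched by position alone. Of the 19 such events with a value in all 4 RNA-seq libraries, 11 were lower in both overexpression samples than in both controls and 3 were higher, against 71 and 25 of 173 events in the authors' deposited table. Of the 11, 3 share 1 span over POLR2J3, RASA4B and POLR2J2 and the same sites, so the 11 events cover 9 distinct spans. The table was limited, per its name, to events past a difference and a Bayes factor, so unchanged events are not set beside these counts.
SON, a nuclear speckle protein, held 3 shared sites in 1 event, whose inclusion in the authors' deposited table was 0.58 and 0.23 in control cells and 0.03 and 0.06 with overexpression. Its site at chr21:34941354-34941755 had 307, 314 and 226 (control) and 4.03, 9.43 and 7.35 (overexpression) U2AF2 reads (log2 change -5.21, SE 0.33, adjusted p = 6.2e-05, every-library adjusted p = 1e-06). hnRNPA1 had 16.1 and 17.4 there and no peak with overexpression.
In the authors' deposited table, inclusion was 0.72 and 0.44 and then 0.15 and 0.15 for the RBM39 event, whose site lost every U2AF2 peak. The ZNF711 event went from 0.58 and 0.59 to 0.20 and 0.24 in the authors' deposited table, and that of ACIN1, an exon junction factor, from 0.44 and 0.30 to 0.04 and 0.06. SRSF11 went from 0.73 and 0.76 to 0.41 and 0.18 in the authors' deposited table, and at its site (chr1:70696671-70697578) U2AF2 fell from 2343, 2529.6 and 2187 to 69.5, 118 and 63.2 (log2 change -4.85, SE 0.25, adjusted p = 2.9e-05, every-library adjusted p = 6e-07) while SRSF1 had 0, 11.1 and 8.0 (control) and 33.6, 114 and 123 (overexpression) (adjusted p = 0.07). Inclusion moved the other way for BCLAF1, a splicing-associated nuclear protein, from 0.61 and 0.37 to 0.83 and 0.80 in the authors' deposited table.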

How the data were processed

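Deposited peak lists of 16 iCLIP libraries were used. Per the file headers, TopHat alignments to hg19, freed of repeats, went into CLIPper, which the authors ran per library on pre-mRNA. The submitters' processing notes also name Bowtie2, without versions. Each deposited peak name gives the reads in the peak, and a p-value from the authors' caller stands beside it. The authors' deposited exon table gives inclusion as a fraction per library and a Bayes factor, a ratio, per pair of libraries from MISO. Exon or intron positions and site sequences were not analysed here.

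Reads of all overlapping peaks were summed per site. Size factors by median of ratios, over sites with a peak in every library of a protein, scaled them. Changes were tested with limma 3.58.1 (R 4.3.3, moderated with a mean trend) on log2(normalised reads + 1), over sites with a peak in at least 50% of a protein's libraries. P-values were adjusted by the Benjamini-Hochberg method over all sites tested, with a threshold of 0.05. An unlisted peak enters as 0 although reads may lie there, which can enlarge a change. Tables and plots were made with Python 3.11.15. On simulated data this test failed: it called many unchanged sites, most for U2AF2 and hnRNPA1, and recovered no difference between responses. The same test over sites with a peak in every library called far fewer unchanged sites, so its counts are given first. For hnRNPA1 and U2AF2 false calls were still a larger part of its calls than the threshold allows.

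Members and gene lists were chosen with earlier results of these data known. Named sites were those with most control reads in all 3 proteins, the largest called changes with groups apart, the largest differences between U2AF2 and SRSF1, sites in the 3 profiled genes, in exon spans, and up to 3 per gene list. Individual snoRNA and snRNA sites were named after their values were seen. Alternatives were scaling, filters, pseudocount, replicate block and leaving out each library.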

Additional observations from a re-analysis of the deposited data

Results flagged for a closer look

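The U2AF2 and SRSF1 responses to overexpression differed at 855 shared sites by the test of the difference itself (limma, adjusted p under 0.05 over all sites tested, peak in at least 50% of libraries). That test failed on simulated data, and with a peak in every library 240 sites were below and 239 above. The sites with the largest fitted differences in each direction were picked by that rule, and a fitted value that rests on libraries with no peak depends on the pseudocount and is no bound.

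U2AF2 was above SRSF1 by 7.15 on the log2 scale in KPNA4, an importin alpha gene, by 6.13 in DSEL, by 6.03 in ASB16 and by 5.44 in NRP1, a semaphorin receptor. U2AF2 was below SRSF1 at an XIST site (chrX:73063543-73063598, -12.6), a MALAT1 site (chr11:65271669-65271707, -12.3), a site under ENSG00000172660 (-11.3) and the ERC1 site (-11.0). U2AF2 overexpression replicate 3 lists no XIST peak, and its part in the XIST value was not tested.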

How the results depend on the processing

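The counts below are of the 50% filter unless named otherwise, a test that failed on simulated data, so their stability is no sign that the calls are right. Falls outnumbered rises for U2AF2 in 16 of 19 settings, for SRSF1 in 12 of 18 and for hnRNPA1 in 16 of 16. Many settings share most of their libraries and sites. For U2AF2 the order was reversed with a peak in every library and with total-read (1293 rises, 883 falls) and quantile scaling (1386 and 828). The U2AF2 response was below that of SRSF1 more often than above it in 18 of 18, by 1 site with a peak in every library and by 544 to 527 with total-read scaling. With a peak required in every library, 725 sites rose and 588 fell for U2AF2, 90 and 51 for SRSF1 and 23 and 472 for hnRNPA1. U2AF2 was then above SRSF1 at 239 sites and below it at 240. This setting tests fewer sites. With a read minimum scaled to depth, 407 rose for U2AF2, 233 fell for SRSF1 and 70 rose for hnRNPA1. The mean share of shared sites with an overexpression peak was then 70.5% for U2AF2 and 49.2% for SRSF1. With no filter, 434 rose for U2AF2, 49 fell for SRSF1 and 7 rose for hnRNPA1. With peaks of at least 10 reads, the rule gave 1563 sites, with 311 rises and 663 falls for U2AF2 and 13 rises and 935 falls for hnRNPA1. Quantile scaling gave 1386 rises for U2AF2, 32 for SRSF1 and 58 for hnRNPA1. Total-read scaling gave 1293 rises for U2AF2, 154 for hnRNPA1 and 527 sites with U2AF2 above SRSF1, and a pseudocount of 6 gave 312 of those. Among sites of at most 200 nt, 616 fell for U2AF2 and 14 rose for hnRNPA1. Peaks in all 8 control libraries left 1300 sites, with 325 rises and 618 falls for U2AF2 and 17 rises and 604 falls for hnRNPA1. Sites shared with overexpression numbered 665 in all 8 libraries and 472 with the depth-scaled minimum. Where no construction is named, the cause was not tested.

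Leaving out 1 library at a time gave 535 to 734 rises and 853 to 1009 falls for U2AF2, 0 to 112 and 1 to 30 for SRSF1, 11 to 54 and 355 to 2534 for hnRNPA1, and 149 to 342 sites with U2AF2 above SRSF1 and 464 to 662 below. Without a control library, sites with peaks in control libraries alone were not tested, so those counts of falls cannot include them. With the replicate number as a block, rises and falls were 523 and 983 for U2AF2, 62 and 100 for SRSF1 and 24 and 1298 for hnRNPA1, and 136 sites were above and 609 below in the difference. Deviations of same-numbered samples correlated at 0.0514, 0.0822 and 0.0548 for U2AF2, 0.105, 0.112 and 0.0388 for SRSF1 and 0.00408 for hnRNPA1, so the numbers were not taken to pair the samples, though each U2AF2 and SRSF1 sample correlated best with its own number. Depth limits hnRNPA1 with overexpression and SRSF1 throughout, where a missing peak is not evidence of no binding.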
